A study of Arabidopsis thaliana with 12 samples.

Results

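Lipid transfer protein genes were followed in siliques of *Arabidopsis thaliana* across 2 genotypes and 2 oxygen levels. The set held 10 loci: AT2G18370, AT3G58550, AT2G45180, LTP1 (AT2G38540), LTP2 (AT2G38530), LTP3 (AT5G59320), LTP4 (AT5G59310), LTP12 (AT3G51590), LTP5 (AT3G51600) and LTP6 (AT3G08770). Of these, 4 could be tied to a probe set, 3 through the array annotation and LTP5 only through the study's table of called genes. LTP1, LTP2, LTP3, LTP4, LTP12 and LTP6, the other 6, were not analysed here. The 4 measured genes had 1 probe set each, among 22746 probe sets of *Arabidopsis* genes tested.

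Total RNA of intact siliques was hybridized to 12 Affymetrix ATH1 arrays, 3 for each of 4 groups. WT was Col-0. AtHb1 plants were T3 plants of 1 transgenic line in the Col-0 background, L1-1, in which the class-1 hemoglobin gene *AtHb1* (AT2G16060) was driven by the seed-specific LeB4 promoter. All plants were 45 days old and stood in darkness for 1 h, in air with 21% oxygen (control) or in a mixture with 10.5% oxygen (hypoxia). The 3 replicates were independent biological samples, and each was a pool of siliques with both seeds and silique wall, so fewer cells of a type and less RNA per cell cannot be told apart in any value below.

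Lipid transfer proteins are small secreted proteins in which disulfide bonds between conserved cysteines hold helices around a hydrophobic cavity that can take up a fatty acid or another lipid. The family is known for the supply of wax, cutin and suberin to plant surfaces, for defence and for roles in reproduction, and in seeds suberin is laid down in the seed coat. The numbered LTP genes are classical secreted members, whereas LTPG proteins carry a glycosylphosphatidylinositol anchor that holds them at the outer face of the plasma membrane. In the reference gene table (assembly TAIR10.1) LTP1 and LTP2, LTP3 and LTP4, and LTP12 and LTP5 are direct neighbours, with 0 genes between the partners of each pair.

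The values are log2 signals normalized over all arrays by RMA, so 1 unit is a 2-fold difference. Signals of different probe sets are not on a common scale, and each gene is compared only with itself. The members were chosen with results of these arrays in view. AT2G18370 and AT3G58550 were chosen by their fall after hypoxia in AtHb1, AT2G45180 was chosen by its difference between the genotypes, and LTP5 carries a name here only because the study called it. Values from those contrasts, and from contrasts that share arrays with them, are therefore a description and are given with no p-value. The WT hypoxia response of AT2G18370 and AT3G58550 is the exception, and its p-values are a description too.

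The *AtHb1* probe set was dimmest in WT at control (6.0025 ± 0.13, SD, n = 3), rose to 9.09 ± 0.04 with hypoxia, and read 11.49 ± 0.88 at control and 10.72 ± 0.38 with hypoxia in AtHb1 plants. AtHb1 control replicate 1 was lower than its partners, at 10.48. The mean over 6 late seed maturation genes was 6.69 at control and 7.93 under hypoxia for WT, and 8.87 at control and 7.59 under hypoxia for AtHb1. None of the listed markers for seed storage, seed storage albumins, silique wall or epidermis (0 of 5 each) had a named probe set. Those 6 genes cannot check the tissue label, since all 6 were more than 2-fold higher in AtHb1 at control. In WT control GEA6 (5.08) and AT3G53040 (5.49) were dim, with means below a log2 signal of 6. Of the 6 genes 3 (GEA6, EM1 and ECP63) carry a name only through the study's table. Of the root markers 1 of 3 was measured, EXPA7 (AT1G12560), a root hair expansin gene, and it read 5.35 to 6.34 over the arrays. Of the anther and pollen markers 3 of 6 were measured, and their mean was 7.08 in WT control and 5.92 to 6.19 in the other groups. This difference came from AGP6 and AGP11, which are named only through the study's table. The annotated marker, AT5G07230, was dim, with group means of 4.90 to 5.11. The mean 3' minus 5' signal of 6 pairs of control probe sets, a measure of RNA quality, was higher on AtHb1 arrays (1.81 at control, 1.89 under hypoxia) than on WT arrays (1.29 and 1.41).

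**Figure D1:**
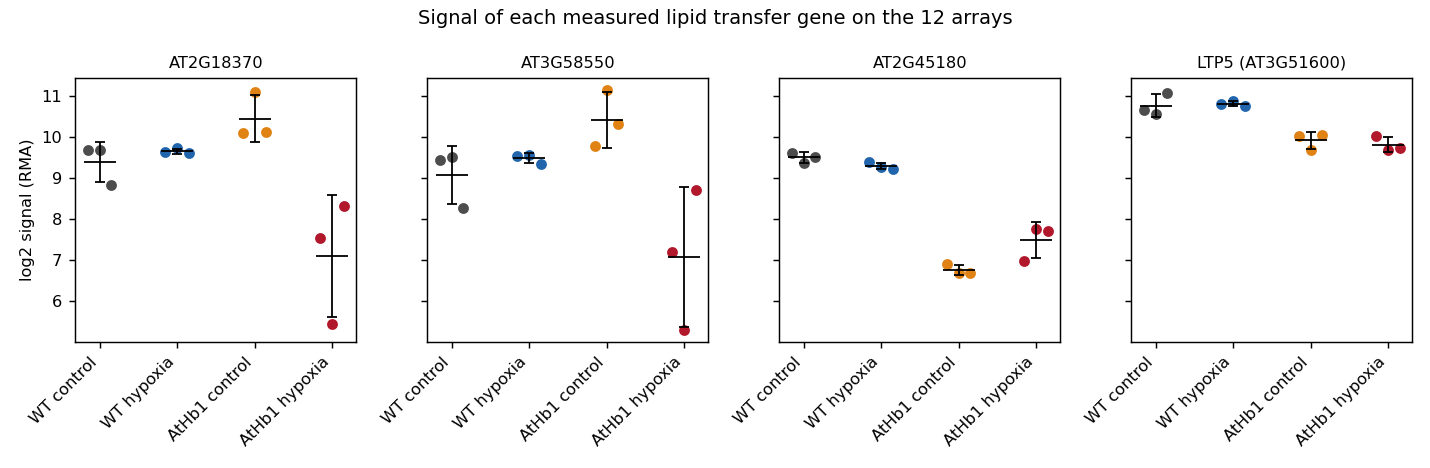
Log2 RMA signal of each measured lipid transfer gene (y axis) in the 4 groups (x axis). Each point is 1 array, the wide bar is the group mean and the error bar is 1 SD of 3 arrays. AT2G18370 and AT3G58550 are lowest and most scattered in AtHb1 hypoxia, while AT2G45180 and LTP5 are lower on all 6 AtHb1 arrays than on all 6 WT arrays.

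AT2G18370 and AT3G58550, both annotated as lipid transfer protein genes, were lowest in AtHb1 siliques under hypoxia and highest in AtHb1 siliques at control. AT2G18370 read 9.70, 9.68 and 8.84 in WT control (mean 9.41 ± 0.49, SD, n = 3) and 9.64, 9.73 and 9.62 in WT hypoxia (9.66 ± 0.06). In AtHb1 plants it read 10.11, 11.12 and 10.14 at control (10.46 ± 0.57) and 7.54, 5.44 and 8.31 under hypoxia (7.10 ± 1.48). The 3 AtHb1 hypoxia arrays lay below all other 9 arrays, and AtHb1 control lay above both WT groups, whereas the WT groups overlapped.

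AT3G58550 read 9.45, 9.53 and 8.27 in WT control (9.08 ± 0.70, SD, n = 3) and 9.56, 9.56 and 9.35 in WT hypoxia (9.49 ± 0.12). The AtHb1 arrays read 9.78, 11.15 and 10.32 at control (10.42 ± 0.69) and 7.21, 5.30 and 8.72 under hypoxia (7.08 ± 1.71). AtHb1 control was again the highest group without overlap. Here AtHb1 hypoxia replicate 3 lay above WT control replicate 3, so AtHb1 hypoxia and WT control overlapped.

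After hypoxia in AtHb1, AT2G18370 was 10.23-fold lower (log2 fold change -3.36, standard error 0.51) and AT3G58550 was 10.14-fold lower (-3.34, standard error 0.61). On AtHb1 hypoxia replicate 2 both genes (5.44 and 5.30) lay below a log2 signal of 6, the value used here as the limit of dim probe sets, where background limits the size of a fall. Of all tested probe sets, 1.12% passed the limits of a called change in this contrast (limma, Benjamini-Hochberg adjusted p under 0.05 and more than 2-fold), and 36.0% had groups that did not overlap. Both genes were chosen by this very contrast, as 2 of the 4 measured members past the limits. Both stayed past them when any 1 array was left out. The size rested in part on AtHb1 hypoxia replicate 2, without which the log2 fold changes were -2.53 for AT2G18370 and -2.45 for AT3G58550.

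In WT neither gene passed the test for hypoxia. The log2 fold change of AT2G18370 was 0.25 (standard error 0.51, limma adjusted p = 0.796) and that of AT3G58550 was 0.41 (standard error 0.61, limma adjusted p = 0.716), with a spread shared with the AtHb1 arrays that chose the genes. In a fit of the 6 WT arrays alone, the standard errors were 0.19 and 0.27 and the limma adjusted p-values 0.405 and 0.336. The WT hypoxia arrays also enter a genotype contrast that was in view when the members were chosen. These p-values are therefore a description too. No measured member passed the limits in WT (0 of 4), against 1.82% of all probe sets, and none had groups that did not overlap, against 36.2%. Without WT control replicate 3, the low array of that group, the values became -0.03 and 0.0001. An exact permutation test of 3 against 3 arrays cannot go below p = 0.1.

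The difference between the hypoxia responses of the genotypes (the interaction) was -3.61 on the log2 scale for AT2G18370 (standard error 0.73) and -3.75 for AT3G58550 (standard error 0.86). These were the 2 of 4 members past the limits, against 2.00% of all probe sets, and the AtHb1 arm of the difference is the contrast that chose them. With the prior variance of eBayes fitted as a trend and robustly, AT3G58550 no longer passed the limits in the interaction.

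Between the genotypes the same 2 genes stood on opposite sides at the 2 oxygen levels. At control they were higher in AtHb1, by 1.05 for AT2G18370 (2.06-fold, standard error 0.51) and 1.33 for AT3G58550 (2.52-fold, standard error 0.61), and neither passed the limits. Under hypoxia they were lower in AtHb1, by -2.56 (5.91-fold) and -2.41 (5.33-fold) with the same standard errors. Both passed, as did 1.74% of all probe sets. In both contrasts the genotypes did not overlap, as for 46.4% of all probe sets at control and 50.9% under hypoxia. With the 3' minus 5' signal described above in the fit, the values under hypoxia were -2.46 and -2.95 and no longer passed. That signal is confounded with genotype, and the part of RNA quality in these differences was not tested. When only the 2 control groups were fitted both genes passed at control.

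Outside WT hypoxia the replicates of these 2 genes were spread more widely than those of nearly all other probe sets. In AtHb1 hypoxia the SD of AT3G58550, 1.71, was larger than that of every other tested probe set (0 larger), and the SD of AT2G18370, 1.48, was exceeded by 4, where the median SD of all probe sets was 0.11. In WT control 80 probe sets had a larger SD than AT2G18370 and 19 had a larger SD than AT3G58550. In WT hypoxia the spread was ordinary, with 61.0% and 19.7% of probe sets more variable than AT2G18370 and AT3G58550.

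The scatter was shared by both genes. Over the 12 arrays their log2 signals had a Pearson r of 0.99 and a Spearman rho of 0.97, and r was 0.94 without the 2 arrays farthest from the median of AT2G18370. After subtraction of the group means r was 0.97 over the 4 groups together, so deviations among replicates were shared. The AtHb1 hypoxia arrays, with the largest SD of both genes (1.48 and 1.71), weigh most in this value. The points of both genes share their arrays, normalization and RNA pools.

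**Figure D2:**
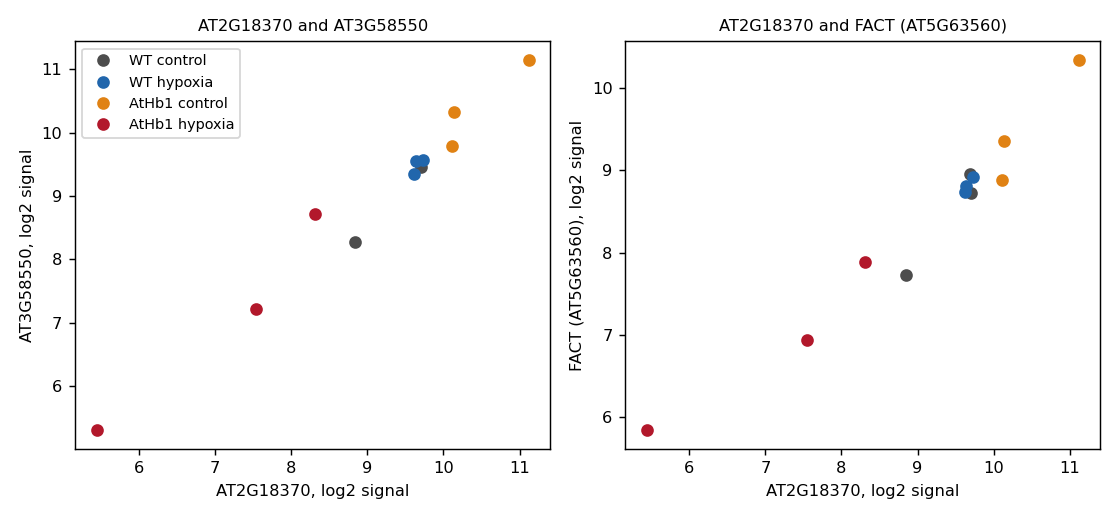
Log2 signal of AT3G58550 (left) and of FACT (right) against that of AT2G18370, 1 point per array, coloured by group. The points run along a line from AtHb1 hypoxia replicate 2 at the lower left to AtHb1 control replicate 2 at the upper right, with r of 0.99 and 0.98.

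The genes most like AT2G18370 over the 12 arrays were ranked by Pearson r among probe sets that name 1 gene. After AT3G58550 came FACT (AT5G63560), a fatty alcohol caffeoyl-CoA acyltransferase that makes alkyl caffeates associated with suberin, with r = 0.98. Then followed AT3G04170, a germin-like protein gene, with r = 0.97, AT1G72960 with r = 0.95 and AT3G31955 with r = 0.95. Of the 22745 other probe sets 29 had r above 0.9 with AT2G18370, and 22 had r above 0.9 with AT3G58550. For AT3G58550, FACT stood first with r = 0.99 (0.97 within groups), ahead of AT2G18370, and the list of 5 was completed by GulLO2, a gulono-lactone oxidase gene, AT3G04170 and FAR4, a fatty acyl reductase that makes fatty alcohols for suberin.

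FACT read 8.73, 8.95 and 7.72 in WT control and 8.81, 8.92 and 8.73 in WT hypoxia. In AtHb1 it read 8.88, 10.35 and 9.36 at control and 6.93, 5.83 and 7.89 under hypoxia. Its lowest and highest arrays were those of both lipid transfer genes, AtHb1 hypoxia replicate 2 and AtHb1 control replicate 2.

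After these ranks and values had been seen, 13 genes of suberin formation were listed, and the list was given no test. Of these, 5 were measured, FACT through the annotation and FAR1, FAR4, CYP86A1 and ABCG2 through the study's table of called genes, so a change in at least 1 contrast was a condition of their name. After hypoxia in AtHb1 the log2 fold changes were -2.64 for FACT (standard error 0.44), -1.81 for FAR4 (0.32), -1.28 for CYP86A1 (0.22), a fatty acid omega-hydroxylase, -1.24 for FAR1 (0.23) and -1.002 for ABCG2 (0.16), a transporter needed for suberin. In WT the 5 values ran from 0.19 for ABCG2 to 0.58 for FAR4. The mean of the 5 was highest in AtHb1 control (8.49), followed by WT hypoxia (8.09), WT control (7.68) and AtHb1 hypoxia (6.90), the order of groups seen for AT2G18370 and AT3G58550. WT control replicate 3 was the lowest of its group for all 5, as for both lipid transfer genes.

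**Figure D3:**
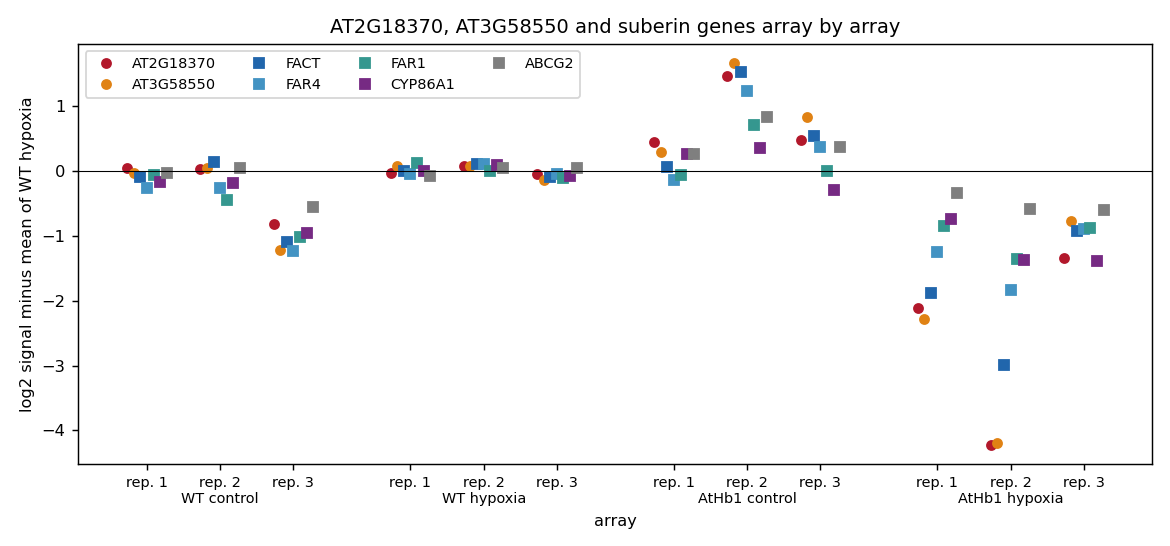
Log2 signal minus the gene's mean in WT hypoxia (y axis) on each of the 12 arrays (x axis) for AT2G18370 and AT3G58550 (circles) and 5 suberin genes (squares). All 7 genes are low on WT control replicate 3 and on the 3 AtHb1 hypoxia arrays, and the 2 lipid transfer genes fall deepest on AtHb1 hypoxia replicate 2.

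The late seed maturation genes moved in part with this scatter. Their mean read 6.98, 6.96 and 6.13 in WT control, 7.79, 9.49 and 9.33 in AtHb1 control and 7.41, 7.28 and 8.09 in AtHb1 hypoxia. In WT hypoxia it read 7.85, 7.86 and 8.09, highest on replicate 3, where both lipid transfer genes were lowest in that group. Within groups their mean had r = 0.56 with AT2G18370 and 0.68 with AT3G58550 (n = 12 arrays), and over all arrays 0.45 and 0.55. The 3' minus 5' signal had r = -0.02 and 0.09 with them within groups. The part of either measure in the fall of these genes was not tested.

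AT2G45180, a gene of the protease inhibitor, seed storage and lipid transfer family, separated the genotypes at both oxygen levels. It read 9.63, 9.38 and 9.52 in WT control (9.51 ± 0.13, SD, n = 3) and 9.40, 9.27 and 9.24 in WT hypoxia (9.30 ± 0.08). In AtHb1 it read 6.90, 6.69 and 6.69 at control (6.76 ± 0.12) and 6.99, 7.77 and 7.70 under hypoxia (7.49 ± 0.43). The lowest WT array thus lay above the highest AtHb1 array, and within AtHb1 the hypoxia arrays lay above the control arrays. Hypoxia and control groups of AtHb1 did not overlap for 36.0% of all probe sets.

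The level of AT2G45180 was 6.73-fold lower in AtHb1 at control and 3.51-fold lower under hypoxia (standard error 0.16 on the log2 scale), the contrasts by which it was chosen. At control it was the only 1 of the 4 members past the limits, where 2.17% of all probe sets passed and 33.2% passed the adjusted p alone. Under hypoxia all 4 members passed, against 1.74% of all probe sets and 40.6% at the adjusted p alone, from which nothing is read, since the members were chosen with this contrast in view. Of the 4, AT2G45180 alone passed with the 3' minus 5' signal in the fit, and LTP5 was lost when any of 3 single arrays was left out. All 4 had genotypes that did not overlap in both contrasts, which held for 46.4% of probe sets at control and 50.9% under hypoxia.

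The hypoxia response of AT2G45180 was -0.21 in WT (standard error 0.16), with overlapping groups, and 0.73 in AtHb1 (1.66-fold, standard error 0.16). The AtHb1 rise was largest on replicates 2 and 3, while replicate 1, at 6.99, lay near the control arrays. The interaction was 0.94 (standard error 0.22), just inside the 2-fold limit, and lay past it without WT control replicate 2 (1.00), AtHb1 control replicate 1 (1.01) or AtHb1 hypoxia replicate 1 (1.19). At the adjusted p alone, without a fold limit, 15.8% of all probe sets passed for hypoxia in WT, 22.1% for hypoxia in AtHb1 and 12.3% for the interaction.

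The probe sets most like AT2G45180 were those of PIP2E, an aquaporin gene (r = 0.99), NAC073, a transcription factor gene (0.98), AT2G21220, a SAUR-like auxin-responsive gene (0.98), XTH7, a xyloglucan endotransglucosylase/hydrolase gene (0.98), and AT5G21090, a leucine-rich repeat protein gene (0.98). The first 4 are named through the study's table of called genes. Within groups r ran from 0.22 for AT2G21220 to 0.77 for NAC073, so much of the likeness was the step between the genotypes. In all, 355 probe sets had r above 0.9 with AT2G45180.

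LTP5, a secreted lipid transfer protein known from pollen tube growth, was also lower in AtHb1, by a smaller step. It read 10.66, 10.56 and 11.10 in WT control (10.77 ± 0.29, SD, n = 3) and 10.82, 10.89 and 10.76 in WT hypoxia (10.82 ± 0.07). In AtHb1 it read 10.04, 9.69 and 10.07 at control (9.93 ± 0.21) and 10.04, 9.69 and 9.74 under hypoxia (9.82 ± 0.19). The genotypes did not overlap, and the oxygen levels overlapped within each genotype.

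LTP5 was 1.79-fold lower in AtHb1 at control (log2 fold change -0.84, standard error 0.14) and 2.00-fold lower under hypoxia (-1.001, standard error 0.14). The value under hypoxia sat on the 2-fold limit, and it was -0.97 without WT hypoxia replicate 2, -0.93 without AtHb1 hypoxia replicate 2 and -0.96 without AtHb1 hypoxia replicate 3. Hypoxia changed it by 0.05 in WT and -0.11 in AtHb1, both smaller than their standard error of 0.14.

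LTP5 followed the RNA quality measure. Its r with the 3' minus 5' signal was -0.96 over the 12 arrays and -0.77 within groups, whereas AT2G45180 had -0.88 over the arrays and 0.50 within groups. With the 3' minus 5' signal in the fit, which is confounded with genotype, the genotype difference of LTP5 was 0.15 at control and -0.08 under hypoxia. A decline of LTP5 in AtHb1 and a difference in RNA quality between the genotypes cannot be told apart here. The probe sets above r = 0.9 with LTP5 numbered 501.

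**Figure D4:**
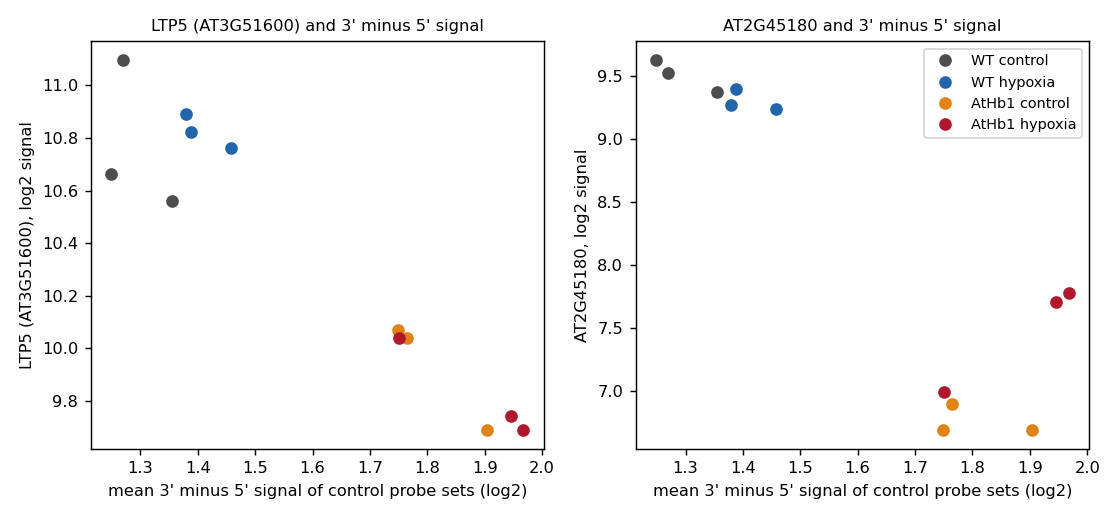
Log2 signal of LTP5 (left) and AT2G45180 (right) against the mean 3' minus 5' signal of 6 pairs of control probe sets, 1 point per array, coloured by group. The AtHb1 arrays have the higher 3' minus 5' signal, and LTP5 falls with it (r = -0.96) also among replicates.

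The 4 members can be laid out in 2 patterns. One is a fall under hypoxia in AtHb1 (AT2G18370 and AT3G58550), the other a step between the genotypes (AT2G45180 and LTP5). AT2G18370, AT3G58550 and AT2G45180 were chosen by these same contrasts, and LTP5 is named only because the study called it. The grouping therefore restates that choice, and the step of LTP5 cannot be told apart from RNA quality. AT2G45180 and LTP5 had r = 0.86 over the 12 arrays but -0.31 within groups, unlike the pair described above. The order of the group means, from the highest, was AtHb1 control, WT hypoxia, WT control and AtHb1 hypoxia for AT2G18370 and AT3G58550, of which WT hypoxia and WT control overlapped. For AT2G45180 it was WT control, WT hypoxia, AtHb1 hypoxia and AtHb1 control, and for LTP5 WT hypoxia, WT control, AtHb1 control and AtHb1 hypoxia. Both groups of a genotype overlapped for LTP5, and only those of WT for AT2G45180.

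Beyond the members, 23 other lipid transfer genes were listed and 9 were measured, 6 through the annotation and 3 through the study's table. Of the 6 annotated genes 1 was called higher and 0 lower in AtHb1 at control (2.17% of all probe sets were called in either direction), and likewise 1 and 0 under hypoxia (1.74%). After hypoxia 1 was called higher and 0 lower in WT (1.82%), and 0 were called in AtHb1 (1.12%), where 1 passed the adjusted p alone (22.1%). The median log2 fold change of the 6 was 0.23, 0.48, -0.03 and 0.24 in these 4 contrasts, beside medians of -0.01, -0.003, -0.03 and 0.003 over all probe sets. In the interaction 1 was called higher and 1 lower (2.00% of all probe sets), with a median of 0.11 beside 0.02 over all probe sets. After hypoxia in AtHb1 the 6 values ran from -0.07 to 0.65, beside the -3.36 and -3.34 of AT2G18370 and AT3G58550.

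AT5G48490, DIR1-like, a relative of the lipid transfer protein DIR1 of systemic acquired resistance, differed between the genotypes at control. It is described because it was called, from a list made with earlier results of these data known. Its p-values are therefore a description and no fresh test. It read 7.49, 7.36 and 6.62 in WT control and 8.34, 8.21 and 8.24 in WT hypoxia. In AtHb1 it read 8.73, 8.67 and 8.85 at control and 8.64, 8.78 and 9.0004 under hypoxia. WT control was the lowest group without overlap. Groups did not overlap for 46.4% of all probe sets between the genotypes at control and for 36.2% for hypoxia in WT. It was higher in AtHb1 at control by 1.59 (standard error 0.17, limma adjusted p = 9.87e-06) and rose after hypoxia in WT by 1.11 (standard error 0.17, limma adjusted p = 3.21e-04). In AtHb1 its hypoxia response was 0.06 (limma adjusted p = 0.838), and the interaction was -1.05 (limma adjusted p = 0.0108). Without WT control replicate 3 the WT response was 0.84 and the interaction -0.78, both inside the 2-fold limit, and the genotype difference at control was 1.33. The interaction also fell inside it, at -0.96 without AtHb1 hypoxia replicate 1, at -0.998 without AtHb1 control replicate 3 and at -0.92 with array weights, and the genotype call at control was lost at 1.31 with the 3' minus 5' signal in the fit.

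AT4G08530, a lipid transfer protein gene, responded to hypoxia in opposite directions in the genotypes. It too is described because it was called, and its p-values are read in the same way. It read 7.50, 7.28 and 7.32 in WT control and 6.62, 6.64 and 6.56 in WT hypoxia. In AtHb1 it read 7.16, 7.91 and 7.47 at control and 8.22, 8.01 and 8.27 under hypoxia. The control groups overlapped, and both hypoxia groups stood clear of them on opposite sides. Groups did not overlap for 36.2% of all probe sets for hypoxia in WT and 36.0% in AtHb1. Between the genotypes under hypoxia this held for 50.9%. Under hypoxia it was higher in AtHb1 by 1.55 (standard error 0.14, limma adjusted p = 3.27e-06). Its response was -0.76 in WT (limma adjusted p = 0.00167) and 0.65 in AtHb1 (limma adjusted p = 0.00546), both inside the 2-fold limit. The interaction was 1.41 (standard error 0.20, limma adjusted p = 6.07e-04). The genotype call under hypoxia was lost, at 1.30, with the 3' minus 5' signal in the fit.

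The other 4 annotated genes stayed within 2-fold in each contrast. Their p-values are a description too, since the list was made with earlier results of these data known. AT2G15325 (LTP9) was higher in AtHb1 under hypoxia by 0.76 (limma adjusted p = 5.60e-05). AT5G01870 (LTP10) was higher in AtHb1 at control by 0.42 (limma adjusted p = 0.0169) and rose after hypoxia in WT by 0.57 (limma adjusted p = 0.00457). The adjusted p alone was passed by 40.6% of all probe sets between the genotypes under hypoxia and 33.2% at control. For hypoxia in WT the share was 15.8%. AT3G18280 and AT1G48750 did not pass the adjusted p in any contrast.

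The other 3 genes, which carry a name only because the study called them on these arrays, were all lower in AtHb1 at control, which is no independent evidence. LTPG2 (AT3G43720), an anchored protein of cuticular wax export, read 12.27 to 12.56 in WT control and 10.71 to 10.94 in AtHb1 control, a log2 fold change of -1.59 (standard error 0.09). LTPG6 (AT1G55260) had -1.36 (standard error 0.14), and AT2G15050 (LTP7) had -1.19 (standard error 0.17), or -0.92 without WT control replicate 3. With the 3' minus 5' signal in the fit LTPG6 and AT2G15050 had -1.68 and -1.22 and no longer passed the limits. Under hypoxia the differences were smaller, at -0.83 for LTPG2, -0.86 for LTPG6 and -0.23 for AT2G15050. As for AT2G45180, the lower level in AtHb1 at control came without overlap for all 3, as for 46.4% of all probe sets.

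**Figure D5:**
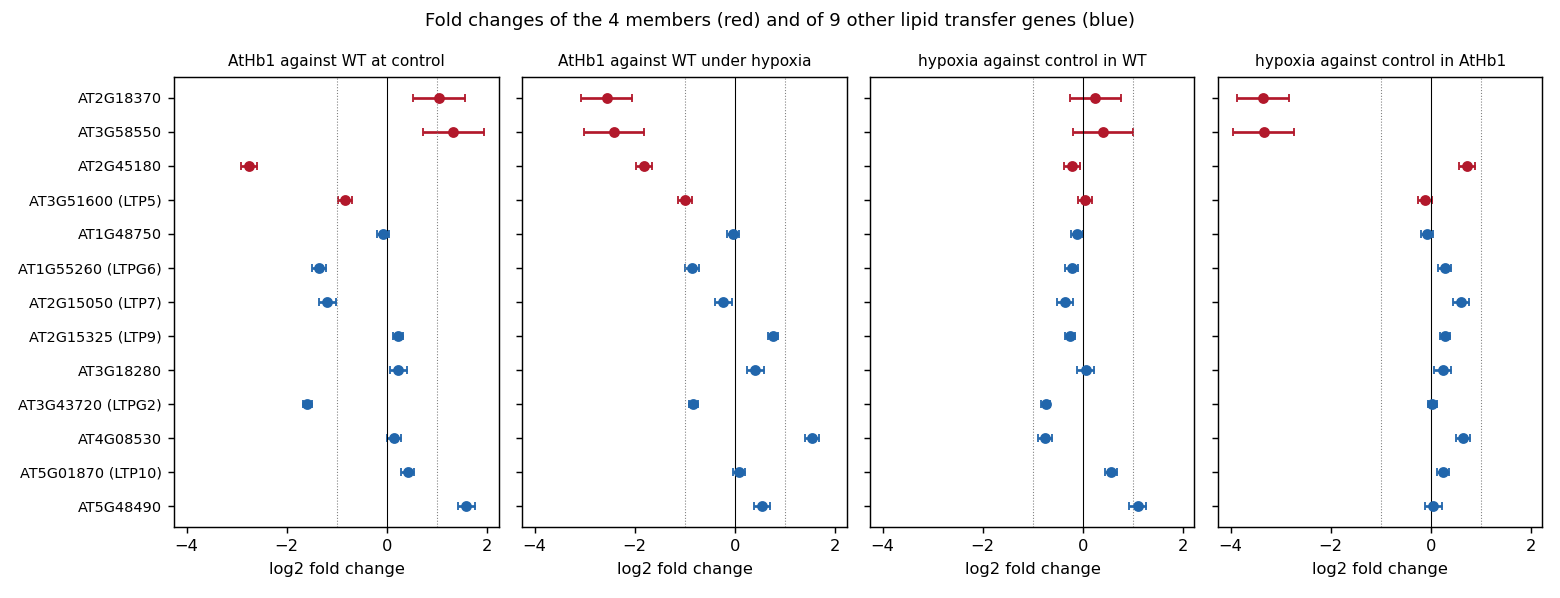
Log2 fold change (x axis) with its standard error for the 4 members (red) and the 9 other measured lipid transfer genes (blue), in 4 contrasts. Dotted lines mark the 2-fold limit. In the contrast of hypoxia against control in AtHb1, AT2G18370 and AT3G58550 lie near -3.4 and the others between -0.11 and 0.73.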

How the data were processed

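Siliques were profiled on 12 ATH1 arrays. The deposited values are log2 signals that the authors made from scans processed with MAS 5.0, by RMA in Bioconductor (versions not given in the sources used here), which normalizes all arrays together, so a shift shared by most genes would be removed. They were used as deposited. Of 22810 probe sets, 64 controls were set apart.

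Names came from the array annotation (13436 probe sets with 1 gene) or else from the study's table of called genes (490). A further 8240 carry no name here. The members and all lists were chosen with earlier results of these data known. Named are all members, annotated lipid transfer genes called in any contrast, and the 5 most correlated genes of AT2G18370 and of AT2G45180. Other names, the 5 most correlated genes of AT3G58550 among them, were picked with their values known. This ranking was first made by annotation alone and was widened to names from the study's table after both outputs had been seen, which replaced 4 of the 5 names for AT2G45180 and brought in GulLO2 and FAR4 for AT3G58550.

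limma 3.58.1 in R 4.3.3 fitted 1 mean per group over all 12 arrays. p-values were adjusted by Benjamini-Hochberg over 22746 probe sets in each of 5 contrasts. A called change had an adjusted p under 0.05 and an absolute log2 fold change above 1. The code was tested on simulated data. Correlations and figures were made with Python 3.11.15, pandas 2.3.3 and matplotlib 3.10.9. Alternatives were other call limits, spread models, array weights, normalizations, filters, a replicate block, a covariate for the 3' to 5' signal, and each array left out. The WT hypoxia response of AT2G18370 and AT3G58550 was also fitted on the 6 WT arrays alone. The number of arrays limits the precision.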

Additional observations from a re-analysis of the deposited data

Results flagged for a closer look

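The interaction of genotype and hypoxia was fitted for the 4 measured members and 9 other lipid transfer genes. Of these, 4 passed both the adjusted p and the 2-fold limit, as did 2.00% of all probe sets. AT2G45180, LTPG2, AT2G15050 and AT2G15325 also passed the adjusted p but stayed inside the 2-fold limit. Past the adjusted p, on either side of the 2-fold limit, were 12.3% of all probe sets. LTPG2 and AT2G15050 carry a name only because the study called them. For AT2G18370 the difference was -3.6082 on the log2 scale and for AT3G58550 it was -3.7486, and both were chosen by the AtHb1 response that enters it. For AT4G08530 it was 1.4084, with a fall in WT and a rise in AtHb1. For AT5G48490 it was -1.0486, with a rise past the limits in WT. The late seed maturation genes had a median interaction of -2.07 (6 genes), and their part in these differences was not tested.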

How the results depend on the processing

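Of 506 fold changes under alternatives, 473 kept their direction and side of the limits, 17 lost and 10 gained a call, and 6 changed sign. Several alternatives could change a call but not the fold change itself, so direction was fixed there. These were the other call limits, the eBayes setting, the filters, the replicate block and the fits of 2 groups alone. The number of members called at control between genotypes went from 1 to 2 at the adjusted p alone, 2 at an unadjusted p and 3 when only those groups were fitted. Under hypoxia it went from 4 to 1 (AT2G45180) when the 3' to 5' signal was added to the fit as a covariate, and in the interaction from 2 to 1 with the eBayes trend and robust setting and to 3, with AT2G45180, at the adjusted p alone, with array weights, or without WT control replicate 2, AtHb1 control replicate 1 or AtHb1 hypoxia replicate 1. The sign changes were of LTP5 and AT2G18370. The covariate gave 0.1456 for LTP5 between genotypes at control (-0.84 without it) and 0.0501 for its AtHb1 hypoxia response, and centring on array medians gave -0.0113 for its WT response. Leaving out 1 array moved the WT response of LTP5 from -0.0555 to 0.2130 and that of AT2G18370 from -0.0303 to 0.3998. The cause of these shifts was not tested.

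Replicate numbers did not pair the arrays (r of deviations from -0.13 to 0.12 for equal numbers and from -0.22 to 0.22 for others). A replicate block left 4 members called between genotypes under hypoxia, 2 in AtHb1 after hypoxia, and changed no call. The mean over the probe sets of a locus could not differ, since each member had 1. The lowest signals were 5.44 for AT2G18370 and 5.30 for AT3G58550 in AtHb1 hypoxia replicate 2, below the dim limit of 6, where background limits the size of the fall.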
